A study of Mus musculus with 29 samples.

Results

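A set of 10 genes that mark astrocytes, the star-shaped glial cells of the brain, were followed in the caudate nucleus of a mouse model of Huntington's disease. Members were the genes Gfap, S100b, Aqp4, Aldh1l1, Slc1a2, Slc1a3, Gja1, Glul, Vim and Aldoc, matched by the 1 gene symbol annotated to a probe set, with the probe set of highest mean kept for each gene. All 10 were measured among the 19938 genes tested, 9 by a single probe set and Glul by 2 (1 gene with several). The study used 29 mice with 1 array each, in 3 groups of HdhQ150 mice (5 at 6 months, 6 at 12 months and 4 at 18 months) and 3 groups of wild-type mice (5, 5 and 4 at the same ages). HdhQ150 mice carry an expanded CAG repeat knocked into the mouse huntingtin gene Htt, in every cell that expresses it, and the labels do not say whether 1 or both copies were changed. All groups shared the strain background 129/Ola x C57BL6/J, none had a treatment, and the ages were different animals, so that age cannot be told apart from the cohort of mice or the handling of its samples. By label 23 mice were female and 6 male, and both 18-month groups were female. The unit throughout is the log2 expression level after the authors' RMA normalization, and differences are HdhQ150 minus wild type or later minus earlier age, from limma with p adjusted over all 19938 genes and called under 0.05.

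Astrocytes clear glutamate from synapses through the transporters encoded by Slc1a2 and Slc1a3, turn it into glutamine with the enzyme encoded by Glul, and pass water, potassium and small molecules on through Aqp4 channels and the gap junctions of Gja1. Gfap and Vim encode the intermediate filaments of their cytoskeleton, and Gfap is the classical marker of reactive astrocytes in injured or diseased brain. S100b encodes a calcium-binding protein that astrocytes also release, and cells of the oligodendrocyte lineage express it too. Aldh1l1, a folate enzyme, and Aldoc, a brain aldolase of glycolysis, are used as general astrocyte markers. In tissue RNA, fewer cells of a type and less RNA per cell cannot be told apart.

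The arrays were alike in scale, with medians of 6.91 to 7.05 and pairwise correlations of 0.918 to 0.992. The array least like its own group was WT-454 at 12 months (mean correlation 0.945, next lowest 0.9747 for WT-461). The 6-month HdhQ150 mouse 1023, labelled female, had Xist and Eif2s3y at 5.95 and 8.30. Both lay within the values of labelled males, 5.50 to 6.13 for Xist and 7.04 to 8.42 for Eif2s3y. The other labelled females had Eif2s3y at 3.67 to 4.05. The mouse was kept as labelled, so fits of labelled females include it. Htt was lower in HdhQ150 mice, by 0.39, 0.42 and 0.32 at successive ages, and passed at 6 and 12 months but not at 18 (adjusted p = 0.00457, 0.000122 and 0.0523).

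The sequence upstream of the start of 3 genes is printed here because S100b and Glul are the members that differed between genotypes, in opposite directions, and Gfap is the member with the largest difference between ages. Each is the 250 bases before the RefSeq start on build GRCm38.p6, written 5′ to 3′ on the gene's own strand, at chr10:76253586-76253835 (plus strand) for S100b, chr1:153899679-153899928 (plus strand) for Glul and chr11:102897201-102897450 (minus strand) for Gfap. Capitals mark matches on either strand to any of 5 short motifs.
S100b: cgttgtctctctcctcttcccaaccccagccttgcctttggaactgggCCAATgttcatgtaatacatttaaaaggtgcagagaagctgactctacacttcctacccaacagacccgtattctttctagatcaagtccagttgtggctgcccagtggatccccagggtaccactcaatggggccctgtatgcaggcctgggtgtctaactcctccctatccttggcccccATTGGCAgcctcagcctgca
Glul: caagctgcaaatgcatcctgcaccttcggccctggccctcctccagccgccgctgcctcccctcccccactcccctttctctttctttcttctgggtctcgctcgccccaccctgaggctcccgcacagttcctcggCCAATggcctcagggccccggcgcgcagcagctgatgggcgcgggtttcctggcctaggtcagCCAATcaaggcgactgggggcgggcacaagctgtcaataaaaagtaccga
Gfap: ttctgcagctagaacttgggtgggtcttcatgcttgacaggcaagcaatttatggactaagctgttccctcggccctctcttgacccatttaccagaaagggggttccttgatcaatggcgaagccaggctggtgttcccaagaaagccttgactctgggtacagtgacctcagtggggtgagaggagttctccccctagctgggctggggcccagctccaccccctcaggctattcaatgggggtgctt
The motifs were the TATA box TATAAA, the half-site TTGGCA of the NFI factors, the STAT motif TTCNNNGAA, the SOX core AACAAT and the CCAAT box CCAAT. S100b held a CCAAT box 202 to 198 bases before the start and, 20 to 14 bases before it, a CCAAT box on the other strand that overlaps an NFI half-site by 4 bases. Glul held 2 CCAAT boxes, at 113 to 109 and 50 to 46 bases before its start, and Gfap held none of the 5 motifs in this window. Of 32851 promoters of the same length, 33.8% held the CCAAT box, 12.4% the TATA box, 12.3% the NFI half-site, 9.42% the SOX core and 7.02% the STAT motif. Promoters of 9 of the 10 members were searched, and that of Aqp4 was not. Among these 9 the CCAAT box was found in 5 and the SOX core in 0. The TATA box was found in 2 (Slc1a3 and Vim). The NFI half-site was in 2 (S100b and Aldoc) and the STAT motif in 2 (Slc1a3 and Aldoc). Aldoc had 2 promoters, with the NFI half-site in 1 of them and the STAT motif in the other. Counts of members are per gene, and shares over all promoters are per promoter. Glul had the most CpG pairs in the window, 15, against 2 each for S100b and Gfap and a median of 6 over all promoters. These matches describe the letters and were not tied to any expression value.

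S100b was higher in HdhQ150 mice than in wild-type mice at every age, and no other member separated the genotypes in that way. Probe set 10364149 gave S100b levels of 8.42, 8.52, 8.54, 8.59 and 8.59 in the 5 HdhQ150 mice at 6 months, against 8.15, 8.31, 8.31, 8.39 and 8.41 in wild-type mice. At 12 months S100b ran from 8.30 to 8.71 with a median of 8.54 in the 6 HdhQ150 mice, against 8.05, 8.07, 8.17, 8.21 and 8.24 in wild-type mice. At 18 months S100b stood at 8.60, 8.65, 8.87 and 9.03 in HdhQ150 mice and at 8.23, 8.28, 8.33 and 8.44 in wild-type mice. At each age the lowest HdhQ150 mouse lay above the highest wild-type mouse, by the narrowest margin at 6 months (8.42 against 8.41) and the widest at 18 months (8.60 against 8.44). S100b was the only 1 of the 10 members whose genotype groups did not overlap at 6, 12 or 18 months, against 3.18%, 1.59% and 3.7% of all genes at those ages in either direction and 1.84%, 0.687% and 2.2% with HdhQ150 higher.

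**Figure D1:**
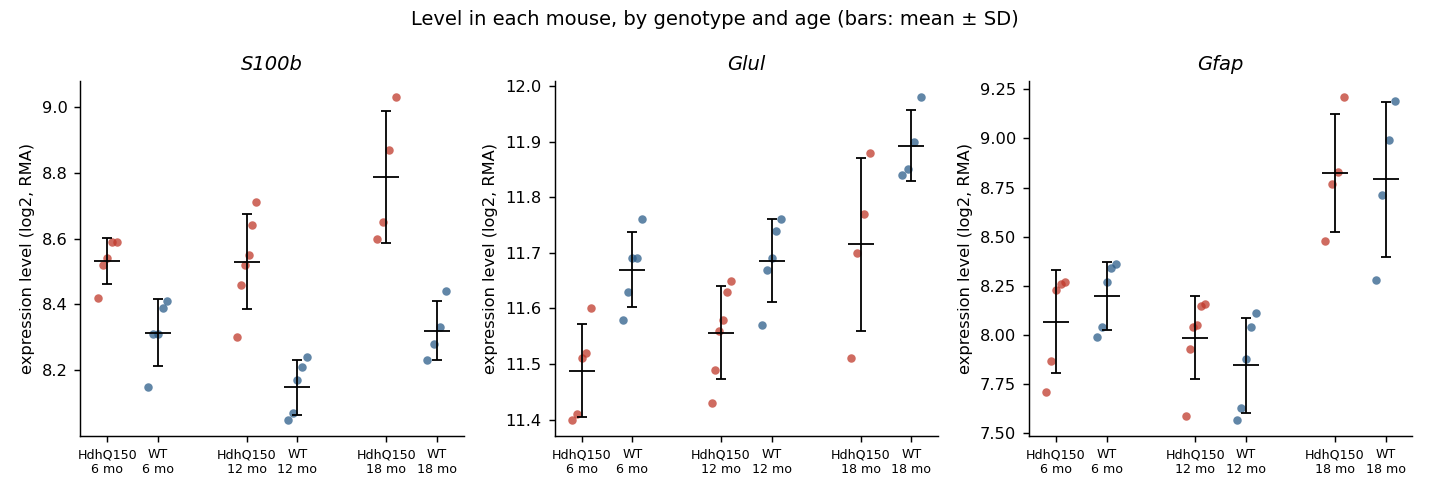
Level of S100b, Glul and Gfap (log2, RMA) in each of 29 mice, HdhQ150 in red and wild type in blue at 6, 12 and 18 months, with the mean and SD of each group in black. S100b points of HdhQ150 mice lie above those of wild type at each age, Glul points lie lower with overlap, and Gfap points at 18 months, the lowest at 8.28, lie above all points at 12 months, the highest at 8.16, while the genotypes overlap at each age.

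The S100b difference was 0.22 at 6 months (SE 0.0773, adjusted p = 0.201), 0.38 at 12 months (SE 0.0736, adjusted p = 0.0051) and 0.47 at 18 months (SE 0.0854, adjusted p = 0.00916). In linear terms this is 1.16-fold, 1.31-fold and 1.38-fold. Of the 10 members, 0 passed at 6 months (3 at an unadjusted p under 0.05), 1 at 12 months and 1 at 18 months, S100b in both, where 0.0251%, 0.938% and 0.135% of all genes passed. At 12 and 18 months 0.336% and 0.0552% of all genes passed with HdhQ150 higher. Averaged over ages the difference was 0.36 (SE 0.0453, 95% interval 0.26 to 0.45, adjusted p = 1.04e-05), higher in HdhQ150 mice at 3 of 3 ages. It was 0.33 in labelled females (adjusted p = 0.000339) and 0.37 without mice WT-454 and 1023 (adjusted p = 5.75e-06). The 18-month call rested on few mice: without HdhQ150 mouse 383, which had the highest S100b, the difference was 0.39 (adjusted p = 0.0801), without HdhQ150 mouse 426 it was 0.44 (adjusted p = 0.0687), and in a fit of the 18-month groups alone it was 0.47 (adjusted p = 0.178). The 6-month difference passed in 1 of 41 other settings, with arrays weighted by quality, at 0.25 (adjusted p = 0.0291). In labelled females it was 0.16 (adjusted p = 0.499).

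The size of the S100b difference was larger at each later age, but its change with age did not pass. The change was 0.17 between 6 and 12 months (SE 0.108, interval -0.05 to 0.39, adjusted p = 0.833), 0.08 between 12 and 18 months (SE 0.113, interval -0.15 to 0.31, adjusted p = 1) and 0.25 between 6 and 18 months (SE 0.115, interval 0.01 to 0.48, adjusted p = 0.61). Among the members 0 of 10 changed their genotype difference between any pair of ages by limma, with 0, 0 and 1 at an unadjusted p under 0.05 for these pairs, and 0.00502%, 0% and 0% of all genes passed. In order of mean level, S100b was highest in HdhQ150 mice at 18 months (8.79), followed by HdhQ150 mice at 12 and 6 months (both 8.53), then wild-type mice at 18 months (8.32), 6 months (8.31) and 12 months (8.15). The neighbours HdhQ150 at 12 and 6 months differed by less than their SD of 0.141 and 0.0668, and so did wild type at 18 and 6 months (SD 0.0897 and 0.101).

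S100b also stood higher relative to the other members on the same array. S100b minus the mean of the other 9 members ran from -1.46 to -1.27 in HdhQ150 mice and from -1.88 to -1.44 in wild-type mice at 6 months. At 12 months the difference lay between -1.46 and -1.04 in HdhQ150 mice and between -1.76 and -1.41 in wild-type mice, and at 18 months between -1.41 and -0.96 in HdhQ150 mice and between -1.81 and -1.43 in wild-type mice. The groups overlapped slightly at 6 and 12 months and did not overlap at 18 months.

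Some markers of oligodendrocyte precursors were also higher in HdhQ150 mice. Of 6 such markers 2 passed averaged over ages, where 1.73% of all genes passed higher, the lineage factors Olig1 (0.32, SE 0.0503, adjusted p = 0.000243) and Olig2 (0.15, SE 0.0409, adjusted p = 0.0404), and Olig1 was higher at 12 months (0.37, adjusted p = 0.0168). The other 4 did not pass averaged over ages. The mean of the 6 markers spanned 8.11 to 8.25 in HdhQ150 mice and 8.0 to 8.18 in wild-type mice at 6 months, 8.05 to 8.24 in HdhQ150 mice and 7.98 to 8.08 in wild-type mice at 12 months, and 8.17 to 8.28 in HdhQ150 mice and 8.06 to 8.08 in wild-type mice at 18 months. Of 9 markers of mature oligodendrocytes, which make myelin, 1 was higher (Mog, 0.21) and 3 lower (Ugt8a -0.37, Cldn11 -0.20 and Aspa -0.29) averaged over ages, with adjusted p from 0.0144 to 0.0481. Of all genes 1.33% passed lower in this comparison. Whether these cells contributed to the S100b difference was not tested.

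Glul, which encodes glutamine synthetase, was lower in HdhQ150 mice, by a smaller amount than the S100b difference. Its levels at 6 months were 11.40, 11.41, 11.51, 11.52 and 11.60 in HdhQ150 mice and 11.58, 11.63, 11.69, 11.69 and 11.76 in wild-type mice. At 12 months they spanned 11.43 to 11.65 with a median of 11.57 in HdhQ150 mice, against 11.57, 11.67, 11.69, 11.74 and 11.76 in wild-type mice. At 18 months they were 11.51, 11.70, 11.77 and 11.88 in HdhQ150 mice and 11.84, 11.85, 11.90 and 11.98 in wild-type mice. The genotypes overlapped at every age, by 1 HdhQ150 mouse above the lowest wild-type mouse at 6 and at 18 months and by 3 at 12 months. The Glul difference was -0.18 at 6 months (SE 0.0614, adjusted p = 0.19), -0.13 at 12 months (SE 0.0584, adjusted p = 0.487) and -0.18 at 18 months (SE 0.0679, adjusted p = 0.62), and passed at none of the single ages. Averaged over ages it fell by 0.16 (SE 0.036, 95% interval -0.24 to -0.09, adjusted p = 0.00942), 1.12-fold lower. With S100b, 2 of the 10 members passed in that comparison, 1 higher and 1 lower, where 3.06% of all genes passed, 1.73% higher and 1.33% lower. The median member difference was -0.018, against 0 over all genes. The second Glul probe set, 10374453, had a difference of -0.13 averaged over ages (SE 0.0399), with an adjusted p of 0.118 over all probe sets. It averaged 11.41 ± 0.0866 in HdhQ150 mice and 11.54 ± 0.0879 in wild-type mice at 6 months (SD, n = 5 each), 11.42 ± 0.0472 in HdhQ150 mice (n = 6) and 11.53 ± 0.141 in wild-type mice (n = 5) at 12 months, and 11.45 ± 0.147 in HdhQ150 mice and 11.59 ± 0.103 in wild-type mice (n = 4 each) at 18 months.

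The glutamate transporter genes did not pass. Slc1a2, which encodes the main glutamate transporter of forebrain astrocytes, stood at 11.77, 11.79, 11.90, 11.95 and 12.02 in HdhQ150 mice and at 11.97, 12.02, 12.03, 12.05 and 12.14 in wild-type mice at 6 months. Slc1a2 spanned 11.74 to 11.97 with a median of 11.85 in HdhQ150 mice at 12 months, against 11.80, 11.91, 11.99, 12.00 and 12.03 in wild-type mice. It was at 11.80, 11.97, 12.03 and 12.05 in HdhQ150 mice and at 11.98, 12.08, 12.15 and 12.20 in wild-type mice at 18 months. The mean was lower in HdhQ150 mice at 3 of 3 ages with overlap at each. The averaged Slc1a2 difference was -0.12 (SE 0.0375, interval -0.20 to -0.05, adjusted p = 0.0677). It passed in 7 of 41 other settings, among them the fit without mice WT-454 and 1023 (-0.13, adjusted p = 0.0315). Slc1a3, the second astrocytic transporter, had an averaged difference of -0.01 (SE 0.0401, interval -0.09 to 0.07, adjusted p = 0.967), so that a difference beyond 0.09 in either direction lies outside its interval.

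Gfap, the marker of reactive astrocytes, did not separate the genotypes at any age. Its levels at 6 months were 7.71, 7.87, 8.23, 8.26 and 8.27 in HdhQ150 mice and 7.99, 8.04, 8.27, 8.34 and 8.36 in wild-type mice. At 12 months Gfap ran from 7.59 to 8.16 with a median of 8.05 in HdhQ150 mice, against 7.57, 7.63, 7.88, 8.04 and 8.11 in wild-type mice. At 18 months it was at 8.48, 8.77, 8.83 and 9.21 in HdhQ150 mice and at 8.28, 8.71, 8.99 and 9.19 in wild-type mice. The genotypes overlapped at each age. At 6 months the HdhQ150 mice at 7.71 and 7.87 lay below every wild-type mouse, and the wild-type mice at 8.34 and 8.36 lay above every HdhQ150 mouse. The Gfap difference was -0.13 at 6 months (interval -0.44 to 0.19), 0.14 at 12 months (-0.16 to 0.44), 0.03 at 18 months (-0.32 to 0.38) and 0.01 averaged over ages (SE 0.0906, interval -0.17 to 0.20, adjusted p = 0.977). These intervals are wider than those of S100b, since Gfap varied more between mice of a group (SD 0.175 to 0.396, against 0.0668 to 0.197 for S100b).

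**Figure D2:**
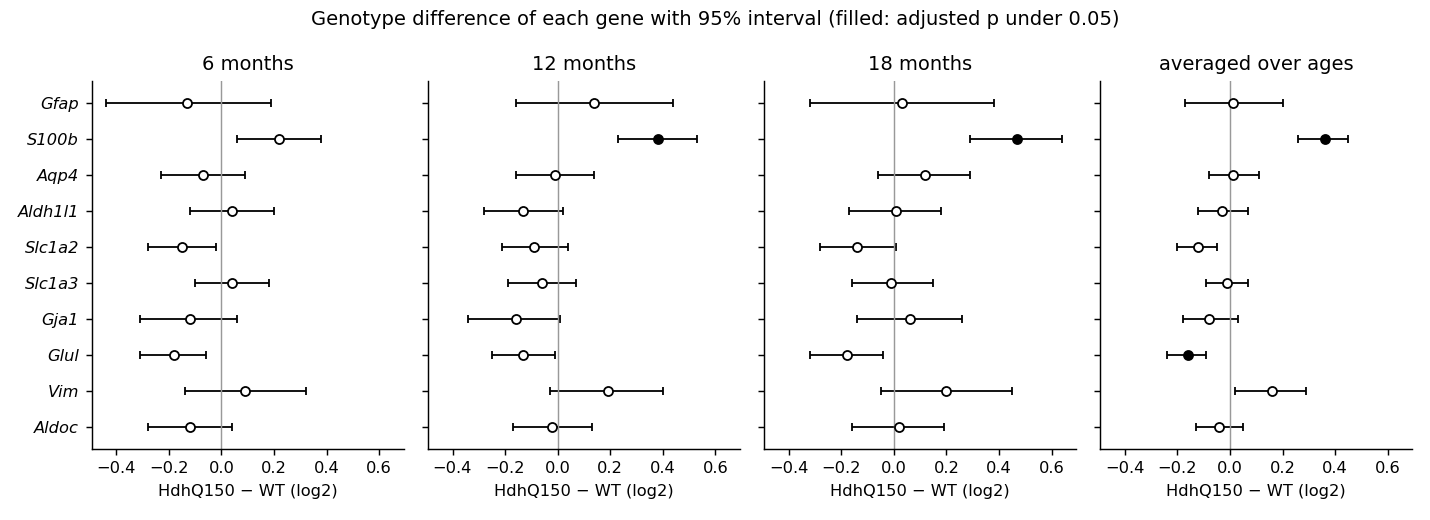
Difference in log2 level, HdhQ150 minus wild type, of each of the 10 members at 6, 12 and 18 months and averaged over ages, with 95% intervals. Filled points passed an adjusted p of 0.05: S100b at 12 and 18 months and averaged over ages, and Glul averaged over ages, on opposite sides of 0. Open points did not pass.

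Vim, the filament partner of Gfap in astrocytes and also expressed by vessel and meningeal cells, had an averaged difference of 0.16 (SE 0.0649, interval 0.02 to 0.29, adjusted p = 0.229). HdhQ150 mouse 383 at 18 months had Vim at 10.41, against 9.62 to 9.92 in the other HdhQ150 mice and 9.55 to 9.96 in wild-type mice of that age. The same mouse had the highest Gfap (9.21), the highest S100b (9.03) and the highest mean of the 6 fibroblast and meningeal markers (7.84, against 7.04 to 7.14 in the other HdhQ150 mice and 7.07 to 7.25 in wild-type mice at 18 months). Without mouse 383 the 18-month difference of Vim was 0.04 in place of 0.20, and the averaged S100b difference was 0.33 (adjusted p = 2.29e-05). Mouse 383 also had the lowest Glul (11.51) and Slc1a2 (11.80) at 18 months. Without it their 18-month differences were -0.11 and -0.08 in place of -0.18 and -0.14. Their averaged differences were then -0.14 (adjusted p = 0.0223) and -0.11 (adjusted p = 0.156). The part of fibroblast and meningeal cells in these levels was not tested.

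The remaining 4 members showed no call by genotype. Aqp4, the water channel of astrocyte endfeet, had an averaged difference of 0.01 (interval -0.08 to 0.11). Gja1, which encodes the gap junction protein connexin 43, stood at -0.08 (interval -0.18 to 0.03). Aldh1l1 stood at -0.03 (interval -0.12 to 0.07) and Aldoc at -0.04 (interval -0.13 to 0.05). Adjusted p-values of these 4 ran from 0.581 to 0.954. The S100b difference of 0.36 lies outside all 4 of these intervals.

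Other genes of the same pathways were also compared between genotypes. Of 35 other astrocyte markers 3 were lower and 0 higher in HdhQ150 mice averaged over ages, where 1.33% of all genes passed lower and 1.73% higher. Id4, an inhibitor of helix-loop-helix factors, fell by 0.28 (SE 0.049, adjusted p = 0.000825). It averaged 8.91 ± 0.103 in HdhQ150 mice and 9.22 ± 0.25 in wild-type mice at 6 months (n = 5 each), 9.02 ± 0.0736 in HdhQ150 mice (n = 6) and 9.34 ± 0.0812 in wild-type mice (n = 5) at 12 months, and 8.79 ± 0.0875 in HdhQ150 mice and 9.01 ± 0.107 in wild-type mice (n = 4 each) at 18 months. At 12 months alone Id4 was also lower, by 0.32 (adjusted p = 0.047). Ppp1r3c, a glycogen-targeting subunit of protein phosphatase 1, fell by 0.26 (SE 0.0658, adjusted p = 0.0228), and Dio2, which activates thyroid hormone, fell by 0.18 (SE 0.0516, adjusted p = 0.0459). The median of the 35 was -0.03, against 0 over all genes.

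Genes known to be induced in reactive astrocytes gave no call averaged over ages. Of 31 measured, 0 passed by limma (3 at an unadjusted p under 0.05), with a median difference of 0. Of all genes 3.06% passed in that comparison, a share at which short lists hold few calls or none. At 12 months, where 0.938% of all genes passed in either direction, 1 of 31 was lower. This was S100a10, which is also 1 of the 14 other S100 family genes measured, by 0.56 (SE 0.136, adjusted p = 0.041). Its mean at 12 months was 8.15 ± 0.307 in HdhQ150 mice (n = 6) and 8.73 ± 0.354 in wild-type mice (n = 5), and it did not pass at another age. Of the 14 other S100 genes, 0 passed averaged over ages (5 at an unadjusted p under 0.05). The nearest in level of evidence were S100a3 (-0.15, adjusted p = 0.064) and S100a1 (0.16, adjusted p = 0.0703), opposite in sign. Of 9 filament partners of Gfap and Vim, 0 passed averaged over ages and 0 had an unadjusted p under 0.05.

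Among 13 other genes of glutamate and glutamine handling, 2 fell in HdhQ150 mice averaged over ages, where 1.33% of all genes passed lower. Both encode metabotropic glutamate receptors: Grm5, found on neurons and glia, fell by 0.19 (SE 0.0427, adjusted p = 0.00976), and Grm3, abundant in astrocytes, fell by 0.18 (SE 0.041, adjusted p = 0.0124). Of 12 genes of connexins, water and potassium buffering 0 passed (2 at an unadjusted p under 0.05), and of 16 genes of glycolysis and folate metabolism 0 passed (1 at an unadjusted p under 0.05). In either direction 3.06% of all genes passed. Of 11 microglia markers 0 passed averaged over ages, with 0 at an unadjusted p under 0.05. The same held for 10 endothelial and mural markers, 6 fibroblast and meningeal markers, 8 ependymal markers and 8 choroid plexus markers, with 0 passing and 0 at an unadjusted p under 0.05 in each list. Markers of striatal projection neurons, the cells most affected in Huntington's disease, were lower in HdhQ150 mice beside these glial values, 6 of 10 averaged over ages with a median of -0.28. The share that their change had in the levels of astrocyte genes was not tested.

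More members passed between ages than between genotypes, but so did more of all genes. Averaged over genotypes 43%, 12.6% and 14.3% of all genes passed for 12 minus 6, 18 minus 12 and 18 minus 6 months. Averaged over ages 3.06% passed between genotypes. Markers of other cell types moved with age too. The mean of 7 markers of cortical excitatory neurons, which are not native to the caudate nucleus, spanned 8.06 to 8.73 in HdhQ150 mice and 8.20 to 8.83 in wild-type mice at 6 months. It spanned 6.86 to 8.06 in HdhQ150 mice and 7.30 to 8.26 in wild-type mice at 12 months, and 8.26 to 8.97 in HdhQ150 mice and 8.21 to 9.0 in wild-type mice at 18 months. The mean of 10 striatal projection neuron markers ran the other way, with spans of 10.06 to 10.53 in HdhQ150 mice and 10.36 to 10.64 in wild-type mice at 6 months, 10.54 to 10.69 in HdhQ150 mice and 10.78 to 10.93 in wild-type mice at 12 months, and 9.74 to 10.25 in HdhQ150 mice and 10.19 to 10.45 in wild-type mice at 18 months. Averaged over genotypes, cortical markers had a median difference of -0.53 between 12 and 6 months (6 of 7 lower). Between 18 and 12 months it was 0.76 (6 of 7 higher). Striatal markers had medians of 0.39 (8 of 10 higher) and -0.62 (10 of 10 lower) for the same pairs of ages. Of all genes 19.1% passed lower and 23.9% higher between 12 and 6 months, and 4.12% lower and 8.47% higher between 18 and 12 months. Between 18 and 6 months 0 of 7 cortical markers passed by limma, and 7 of 10 striatal markers were lower. Of all genes 6.39% passed lower and 7.88% higher between these ages. With the cortical marker mean in the fit the averaged genotype calls were S100b at 0.36 (adjusted p = 1.2e-05) and Glul at -0.14 (adjusted p = 0.0103). Age differences of the members are given also from a fit that holds the cortical marker mean as a covariate, which was chosen after these levels had been seen.

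**Figure D3:**
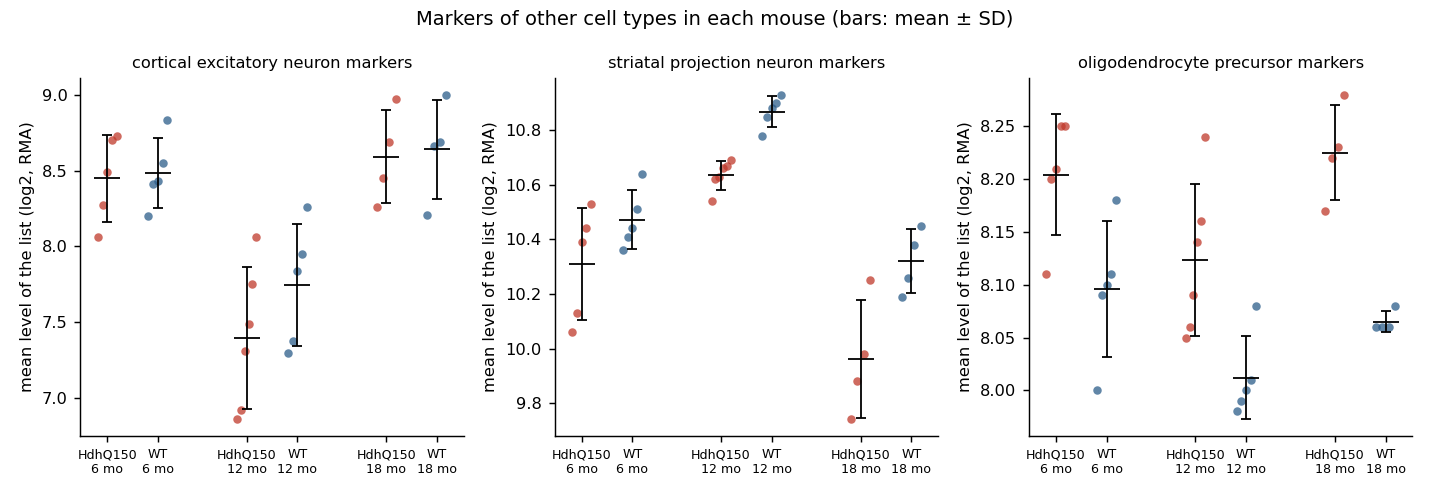
Mean level (log2, RMA) of 7 cortical excitatory neuron markers, 10 striatal projection neuron markers and 6 oligodendrocyte precursor markers in each mouse, HdhQ150 in red and wild type in blue at 6, 12 and 18 months, with group mean and SD in black. Cortical markers are lowest at 12 months (down to 6.86) and striatal markers highest there, and precursor markers of the genotypes do not overlap at 18 months.

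Gfap rose at 18 months in both genotypes. The 18-month values already given lay above every 12-month value of either genotype, with the lowest 18-month mouse at 8.28 and the highest 12-month mouse at 8.16. Against 6 months the wild-type mice overlapped, with an 18-month minimum of 8.28 and a 6-month maximum of 8.36. The HdhQ150 mice did not, with 8.48 and 8.27. Between 18 and 12 months Gfap rose by 0.90 averaged over genotypes (SE 0.117, adjusted p = 2.42e-06), 1.86-fold, with 0.84 in HdhQ150 mice and 0.95 in wild-type mice (adjusted p = 0.00118 and 0.000384). Between 18 and 6 months it rose by 0.68 (SE 0.12, adjusted p = 0.000305), 1.60-fold. With the cortical marker mean in the fit these were 0.83 (SE 0.189, adjusted p = 0.0195) and 0.67 (SE 0.122, adjusted p = 0.000395). In that fit the 18 minus 12 month difference did not pass within HdhQ150 mice (0.76, SE 0.234, adjusted p = 0.204) and passed within wild-type mice (0.89, SE 0.208, adjusted p = 0.0231). The 18 minus 6 month difference passed in both, at 0.75 and 0.59 (adjusted p = 0.00655 and 0.0318). Without mouse 383 the 18 minus 12 month difference was 0.83 (adjusted p = 7.77e-06). In the fit with group and sex alone the 18 minus 6 month difference was 0.76 in HdhQ150 mice and 0.60 in wild-type mice (adjusted p = 0.00629 and 0.0305). The HdhQ150 difference passed in all 41 other settings. The wild-type difference did not pass in 6 of 41, among them labelled females (0.59, adjusted p = 0.0824) and only the groups compared (0.59, adjusted p = 0.11). Between 12 and 6 months the Gfap difference was -0.22 (interval -0.43 to 0, adjusted p = 0.0979).

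The gap junction and transporter genes Gja1 and Slc1a3 fell between 6 and 12 months and were also lower at 18 than at 6 months. Gja1 averaged 9.57 ± 0.0942, 9.08 ± 0.0499 and 9.23 ± 0.139 in HdhQ150 mice at 6, 12 and 18 months (n = 5, 6 and 4), and 9.70 ± 0.194, 9.24 ± 0.176 and 9.17 ± 0.199 in wild-type mice (n = 5, 5 and 4). Slc1a3 averaged 10.49 ± 0.0677, 9.99 ± 0.0697 and 10.15 ± 0.0936 in HdhQ150 mice and 10.46 ± 0.127, 10.05 ± 0.112 and 10.16 ± 0.159 in wild-type mice at the same ages. In HdhQ150 mice the lowest 6-month Gja1 level (9.47) lay above the highest 12-month level (9.18), and in wild-type mice 1 of 5 6-month levels (9.38) fell within the 12-month range of 8.98 to 9.44. Slc1a3 did not overlap between 6 and 12 months in either genotype. The 6-month minima were 10.39 in HdhQ150 mice and 10.26 in wild-type mice. The 12-month maxima were 10.09 in HdhQ150 mice and 10.15 in wild-type mice. How many of all genes lay apart in this way between ages was not counted, for these or the other members. Within HdhQ150 and wild-type mice 23.1% and 25.7% of all genes passed between 12 and 6 months. The difference between 12 and 6 months was -0.48 for Gja1 (SE 0.0618, adjusted p = 7.81e-07) and -0.45 for Slc1a3 (SE 0.0468, adjusted p = 2.85e-08). Between 18 and 6 months Gja1 was lower by 0.42 (adjusted p = 0.000172) and Slc1a3 by 0.30 (adjusted p = 0.000294). With the cortical marker mean in the fit the 12 minus 6 month differences were -0.62 and -0.55 (adjusted p = 7.72e-05 and 1.41e-05), and those between 18 and 6 months were -0.40 and -0.29 (adjusted p = 0.000138 and 0.000281).

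**Figure D4:**
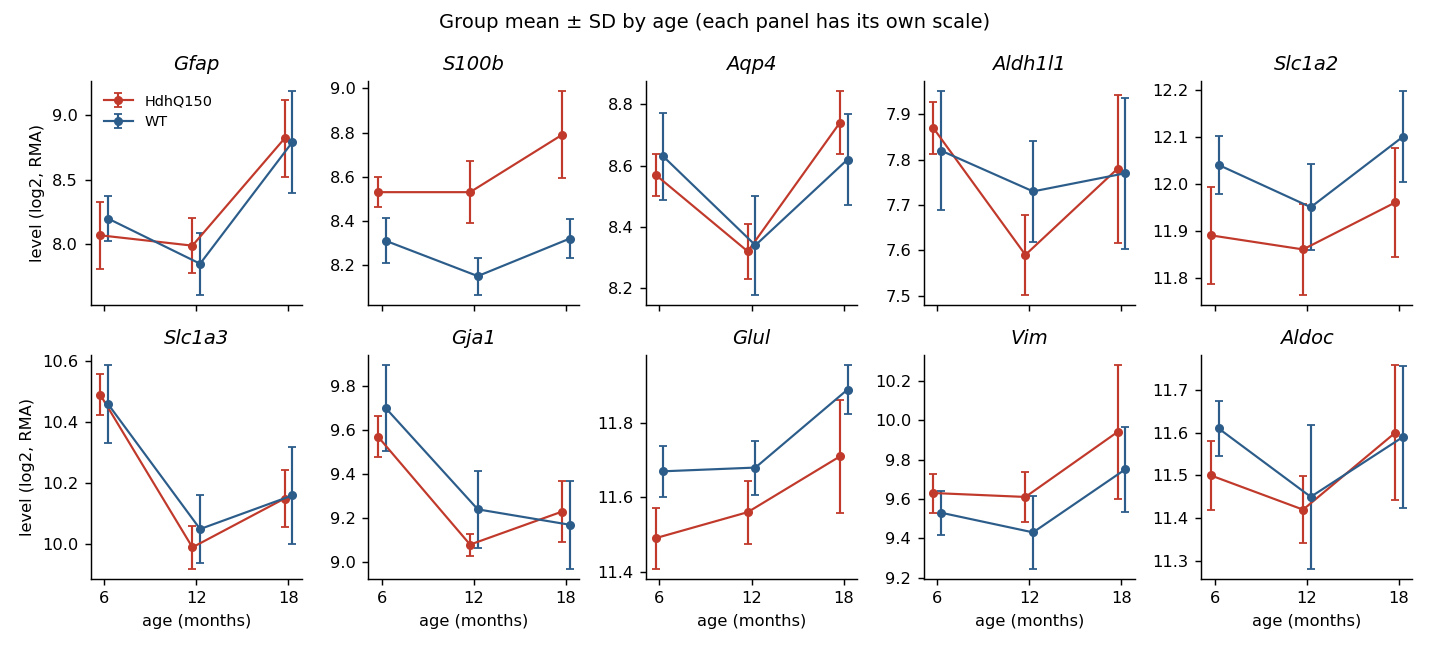
Mean and SD of the log2 level (RMA) of each of the 10 members at 6, 12 and 18 months, HdhQ150 in red and wild type in blue, each panel on its own scale. Gfap rises at 18 months in both genotypes, Slc1a3 and Gja1 drop at 12 months, Aqp4 dips at 12 months, and the S100b means of HdhQ150 mice lie above and the Glul means below those of wild type at all 3 ages.

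Aqp4 was lowest at 12 months. It averaged 8.57 ± 0.068, 8.32 ± 0.0894 and 8.74 ± 0.103 in HdhQ150 mice at 6, 12 and 18 months, and 8.63 ± 0.142, 8.34 ± 0.161 and 8.62 ± 0.147 in wild-type mice. It fell by 0.27 between 6 and 12 months (SE 0.0532, adjusted p = 0.000169) and rose by 0.34 between 12 and 18 months (SE 0.0587, adjusted p = 0.000126). The cortical markers were lowest at the same age. With the cortical marker mean in the fit the differences were -0.34 and 0.41 (adjusted p = 0.00825 and 0.0174). Aldh1l1 spanned 7.81 to 7.95, 7.48 to 7.73 and 7.58 to 7.98 in HdhQ150 mice at 6, 12 and 18 months, and 7.67 to 7.96, 7.55 to 7.84 and 7.59 to 7.99 in wild-type mice. Aldoc spanned 11.40 to 11.60, 11.33 to 11.53 and 11.40 to 11.74 in HdhQ150 mice, and 11.52 to 11.68, 11.26 to 11.61 and 11.36 to 11.75 in wild-type mice. The ages overlapped for both genes except Aldh1l1 at 6 and 12 months in HdhQ150 mice. Aldh1l1 and Aldoc fell by 0.19 (adjusted p = 0.00602) and 0.13 (adjusted p = 0.0497) between 6 and 12 months, and neither passed with the covariate (adjusted p = 0.111 and 0.126) although the differences were -0.21 and -0.19. Aldoc passed in 19 of 41 other settings.

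Averaged over genotypes, Glul, Vim and S100b were higher at 18 than at 12 months. Glul rose by 0.19 between 12 and 18 months (SE 0.0464, adjusted p = 0.00546) and by 0.23 between 6 and 18 months (SE 0.0477, adjusted p = 0.00139). Its second probe set differed by 0.05 and 0.06 for these pairs of ages and did not pass (adjusted p over all probe sets 0.611 and 0.545), so the Glul rise rests on 1 of 2 probe sets. Vim rose by 0.31 between 12 and 18 months (SE 0.0837, adjusted p = 0.0107) and by 0.25 between 6 and 18 months (SE 0.0859, adjusted p = 0.0486), and without mouse 383 these were 0.23 (adjusted p = 0.0281) and 0.17 (adjusted p = 0.135). Within either genotype alone Vim passed for neither pair of ages. S100b rose by 0.22 between 12 and 18 months (SE 0.0584, adjusted p = 0.0104), and was 0.13 higher at 18 than at 6 months (adjusted p = 0.141). The S100b differences for these pairs of ages passed within neither genotype. They were 0.26 and 0.26 in HdhQ150 mice (adjusted p = 0.0526 and 0.0639) and 0.18 and 0.01 in wild-type mice (adjusted p = 0.281 and 0.956). With the cortical marker mean in the fit the 18 minus 12 month differences of Glul and S100b were 0.05 and 0.17 and did not pass (adjusted p = 0.849 and 0.506), that of Vim was 0.51 (adjusted p = 0.0312), and Glul was still higher at 18 than at 6 months (0.22, adjusted p = 0.000999). Slc1a2 passed in none of the age comparisons averaged over genotypes. Its differences were -0.06, 0.14 and 0.08 for 12 minus 6, 18 minus 12 and 18 minus 6 months (adjusted p = 0.278, 0.0624 and 0.332).

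**Figure D5:**
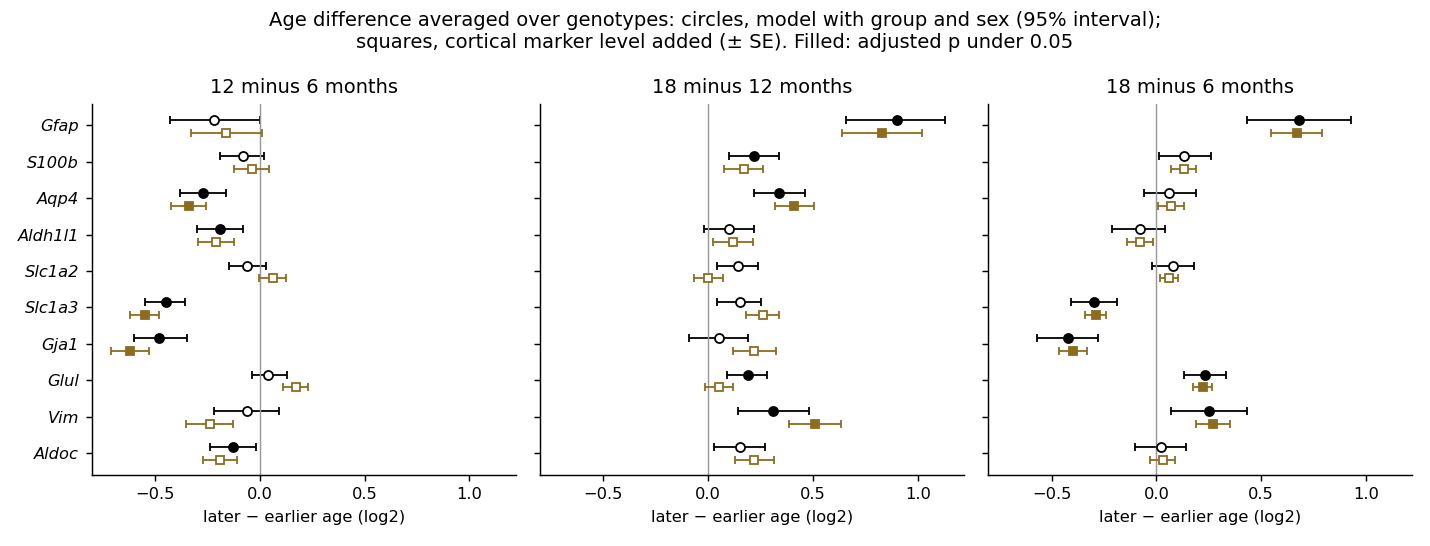
Difference between ages in log2 level, averaged over genotypes, of each member for 12 minus 6, 18 minus 12 and 18 minus 6 months. Black circles with 95% intervals come from the fit with group and sex, and brown squares with SE from the fit that also holds the cortical marker mean, with filled symbols at an adjusted p under 0.05. Gfap stands at 0.90 and 0.83 for 18 minus 12 months, and Glul at 0.19 and 0.05.

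In counts, 5 of the 10 members passed between 12 and 6 months, all lower, where 43% of all genes passed, 23.9% higher and 19.1% lower. Between 18 and 12 months 5 passed, all higher, where 12.6% of all genes passed, 8.47% higher and 4.12% lower, and between 18 and 6 months 3 were higher and 2 lower, where 14.3% of all genes passed, 7.88% higher and 6.39% lower. Median member differences were -0.158, 0.168 and 0.071, against 0.033, -0.021 and 0.021 over all genes. With the cortical marker mean in the fit 3, 3 and 5 members passed, all among those called without it, where 11.9%, 1.59% and 15.6% of all genes passed. Within HdhQ150 mice 4, 2 and 4 members passed for these pairs of ages (23.1%, 5.79% and 4.65% of all genes), and within wild-type mice 3, 2 and 4 (25.7%, 5.87% and 6.27%). The comparisons of 12 with 6 and of 18 with 12 months share the 12-month mice, and their values are set side by side only.

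Other astrocyte genes showed both patterns. Of 35 other astrocyte markers 19 fell and 1 rose between 6 and 12 months, with a median of -0.18, where 19.1% of all genes passed lower and 23.9% higher. Between 12 and 18 months 9 rose and 2 fell, with a median of 0.10, where 8.47% of all genes passed higher and 4.12% lower. Slc25a18, a mitochondrial glutamate carrier, fell by 1.02 and then rose by 0.86 (adjusted p = 4.32e-09 and 8.91e-07), and the glial transcription factor gene Nfia fell by 0.39 and rose by 0.34 (adjusted p = 1.37e-06 and 9.98e-05). Ntsr2, a neurotensin receptor, Sox9, a factor of astrocyte identity, and Apoe, the main lipoprotein of brain, were lower at 18 than at 6 months by 0.35, 0.29 and 0.25 (adjusted p = 0.000332, 0.00134 and 0.00223). Between 18 and 6 months 7 of the 35 fell and 0 rose, where 6.39% of all genes passed lower and 7.88% higher. The list shares Rorb with the cortical markers and Gjb6 and Kcnj10 with the list of connexins, water and potassium buffering.

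A few genes of reactive astrocytes rose at 18 months, and some microglia markers rose beside them. Of 31 reactive genes measured, 5 rose and 0 fell between 12 and 18 months, where 8.47% of all genes passed higher. Serpina3n, a protease inhibitor induced in reactive astrocytes, rose by 1.16 (SE 0.28, adjusted p = 0.00425), Serping1, the inhibitor of complement C1, by 0.45 (SE 0.112, adjusted p = 0.00534), and Osmr, the oncostatin M receptor, by 0.25 (SE 0.0431, adjusted p = 0.00014). The other 26 did not pass, and the median of the 31 was 0.01. Between 6 and 18 months 3 rose and 1 fell, where 7.88% of all genes passed higher and 6.39% lower: Serpina3n by 0.97, Osmr by 0.23 and Cd14 by 0.19 were higher, and the small heat shock protein gene Hspb1 was lower by 0.56 (adjusted p = 0.000761 to 0.0237). Of 11 microglia markers 4 rose and 0 fell between 12 and 18 months, the complement genes C1qb (0.52, adjusted p = 0.000472) and C1qc (0.40, adjusted p = 0.000536), the receptor gene Csf1r (0.20, adjusted p = 0.00674) and the signalling adaptor gene Tyrobp (0.23, adjusted p = 0.0291). The mean of the 11 markers spanned 7.99 to 8.10, 7.77 to 7.97 and 8.01 to 8.23 in HdhQ150 mice at 6, 12 and 18 months, and 7.84 to 8.03, 7.87 to 7.96 and 7.87 to 8.20 in wild-type mice. The part of microglia in the levels of Gfap and of the reactive genes was not tested. Of 12 genes of connexins, water and potassium buffering 6 fell and 0 rose between 6 and 12 months, where 19.1% of all genes passed lower, among them the potassium channel genes Kcnj16 (-0.86) and Kcnj10 (-0.23) and the connexin 30 gene Gjb6 (-0.58), with adjusted p of 4.02e-09, 0.000281 and 6.25e-07. Of these 12, 4 rose between 12 and 18 months, among them Kcnj16 (0.43), Gjb6 (0.35) and Kcnj10 (0.25). Of 13 genes of glutamate and glutamine handling 7 fell between 6 and 12 months, and 6 rose and 1 fell between 12 and 18 months. This list holds Slc17a7, the vesicular glutamate transporter gene of cortical neurons, which is also 1 of the cortical markers. Of the 9 filament partners 5 fell between 6 and 12 months and 4 rose between 12 and 18 months, the neurofilament genes Nefl, Nefm and Nefh, which are neuronal, and Plec. Of 14 other S100 genes 4 rose and 1 fell between 6 and 12 months, where 23.9% of all genes passed higher and 19.1% lower. In this list 0 passed between 12 and 18 months (1 at an unadjusted p under 0.05), and 1 rose between 6 and 18 months, S100a6 by 0.24 (adjusted p = 0.0259).

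Within groups the members did not vary as a single unit. Correlations were taken over the 29 arrays after group and sex means were removed, as a description. The arrays share their tissue composition. Of 45 pairs of members 28 were positive, with a median Pearson correlation of 0.132 (-0.0127 without mice WT-461 and WT-400, the farthest from the median of the member mean). Gja1 and Aldoc (0.808), Slc1a3 and Gja1 (0.804) and Slc1a3 and Aldoc (0.725) were the closest pairs. S100b was positively correlated with only 1 of the other 9 members and had a correlation of -0.328 with their mean (Spearman -0.353, -0.29 without the same 2 mice), the lowest of the 10. Its pair with Aldoc was the lowest of all, at -0.495. Gfap had a weak correlation of 0.166 with the mean of the rest, and Gja1, Aldh1l1, Aldoc and Aqp4 had correlations of 0.607 to 0.705.

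The genes outside the list that followed the mean of the members most closely were Pygb (Pearson 0.771, Spearman 0.728), the brain form of glycogen phosphorylase, Plpp3 (0.744 and 0.586), a lipid phosphatase, the glial adhesion gene Hepacam (0.729 and 0.691), Slc38a1 (0.716 and 0.681), a glutamine transporter, and Ppib (0.711 and 0.615), a prolyl isomerase of the secretory pathway. Without mice WT-461 and WT-400 the Pearson correlations were 0.71, 0.643, 0.603, 0.678 and 0.519.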

How the data were processed

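Caudate RNA, a TRIzol and chloroform extract, was carried through the Affymetrix WT labelling kit with biotin according to the labels' protocols. Each deposited value is the log2 level of 1 probe set. The submitters' processing notes name Expression Console and the RMA algorithm, and their versions are not stated. RMA normalizes quantiles between arrays and summarises probes, so a shift shared by all genes would not show. Of 35556 probe sets 21789 had 1 symbol in the platform annotation, which left 19938 genes after the highest-mean probe set was kept.

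All 29 arrays were fitted with limma 3.58.1 in R 4.3.3 (group means and labelled sex, trend, 22 residual degrees of freedom, two-sided, Benjamini-Hochberg over all genes, threshold 0.05). Each mouse is 1 replicate, and precision is limited by the small number of arrays. The fit was tested on simulated data. Alternatives changed the sex term, mice, groups, probe sets, genes tested, weights, robustness or centring, left out each mouse in turn, or added the cortical marker mean.

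The text names the 10 members, and from each list of pathway genes or cell type markers up to 4 genes past the threshold or the 1 or 2 with the smallest p, with the 5 genes most like the members. Members and lists were chosen with earlier results of these data known. Promoter sequences are RefSeq's on GRCm38.p6.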

Additional observations from a re-analysis of the deposited data

Results flagged for a closer look

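Of 60 member levels by group, 1 held a mouse that lay apart from the rest by Dixon's test at the 95% level: HdhQ150 mouse 451 at 12 months had Gja1 at 9.18, against 9.04 to 9.07 in the other 5 mice of its group. Chance flags about 1 in 20 groups. The gap is narrow in absolute terms, since this group had the smallest spread of Gja1 (SD 0.0499).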

How the results depend on the processing

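Averaged over ages, S100b stayed higher (0.33 to 0.378, adjusted p = 1.04e-06 to 0.000339) and Glul lower (-0.18 to -0.14, adjusted p = 0.00354 to 0.0303) in HdhQ150 mice under all 41 alternatives, and S100b passed at 12 months in all 41 (adjusted p = 0.000835 to 0.0335). With array weights 1 member passed at 6 months, S100b. In fits of only the groups compared, 0 members passed for genotype at 18 months, 2 for 18 minus 6 months in HdhQ150, 1 for 18 minus 12 and 0 for 18 minus 6 months in wild type. Labelled females alone gave 1 for both of these in wild type, arrays centred on the median 5 for 12 minus 6 and 1 for 18 minus 12 months in wild type, all probe sets 1 for 18 minus 12 months in wild type, and leaving out mice WT-454 and 1023 gave 2 for 18 minus 6 months in HdhQ150. The cortical marker covariate, added after the data were seen, left 2 (12 minus 6) and 0 (18 minus 12 months) in HdhQ150, 1 in wild type (18 minus 12 months), and 3 for both steps averaged over genotypes. Leaving out each mouse gave 0 to 1 members for genotype at 18 months, 2 to 4 for 18 minus 6 months in HdhQ150, 1 to 3 and 1 to 4 for 18 minus 12 and 18 minus 6 months in wild type, and 5 to 8 for 18 minus 12 months averaged. Counts over all genes ran from 2 to 1330 (5 as reported) at 6 months, 103 to 656 (187) at 12, 1 to 43 (27) at 18 and 423 to 1644 (610) averaged. Signs turned only for differences near 0 that passed nowhere: with array weights Slc1a3 at 6 months (-0.015), Gfap, Aldh1l1 and Slc1a3 at 18 months (-0.131, -0.002 and 0.029), and Gfap and Aqp4 averaged (-0.072 and -0.034), in females Gfap (-0.03) and Slc1a3 (0.022) averaged, without mice WT-454 and 1023 Aqp4 averaged (-0.003), and in the groups compared Aqp4 at 12 months (0.007). Without single mice the ranges that cross 0 were -0.012 to 0.062 (Slc1a3, 6 months), -0.086 to 0.026 (Aqp4) and -0.073 to 0.013 (Aldoc) at 12 months, -0.14 to 0.164 (Gfap), -0.061 to 0.079 (Aldh1l1), -0.061 to 0.066 (Slc1a3), -0.015 to 0.147 (Gja1) and -0.059 to 0.082 (Aldoc) at 18 months, and -0.043 to 0.059 (Gfap), -0.01 to 0.031 (Aqp4) and -0.027 to 0.016 (Slc1a3) averaged. The causes of these moves were not tested. No paired analysis was possible because no mouse number is shared between groups.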
